A study of Mus musculus with 14 samples.

Results

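Lymphocytes of the FS6KD mouse heart were followed through 9 genes that are read as markers of T, B and natural killer (NK) cells: Cd3d, Cd3e, Cd3g, Cd4, Cd8a, Cd79a, Cd79b, Ms4a1 and Nkg7. They were chosen by name, as 9 of the 42396 genes listed in both tables of estimated counts. All 14 hearts came from female FS6KD mice, in which a gene trap in both copies of Ndufs6 (Ndufs6 gt/gt, on a mixed background that includes C57BL/6J) lowers a subunit of respiratory complex I. For the knockout experiment, hearts of 4 Atf3+/+FS6KD mice and of 4 Atf3-/-FS6KD mice, which carry a CRISPR-Cas9 deletion in Atf3, were taken at 12 weeks of age. For the AAV experiment, newborn FS6KD mice had received MyoAAV2, a muscle-directed adeno-associated virus, with a control hairpin RNA (3 hearts labelled MyoAAV2-shCtrl) or with one against Atf3 (3 hearts labelled MyoAAV2-shAtf3). Whether the AAV hearts were taken at the same age is not clear from the labels. Atf3 encodes a stress-induced transcription factor. No heart without the Ndufs6 trap was analysed here, so the effect of FS6KD itself on these genes could not be examined.

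Cd3d, Cd3e and Cd3g encode the delta, epsilon and gamma chains of CD3, the signaling complex that accompanies the T cell receptor. Cd4 and Cd8a encode the coreceptors that divide most T cells into helper and cytotoxic lineages, and both are also made by some dendritic cells. Cd79a and Cd79b encode the paired signaling chains of the B cell receptor, Ms4a1 encodes the B cell surface protein CD20, and Nkg7 encodes a membrane protein of the cytotoxic granules of NK cells and cytotoxic T cells. The healthy heart holds few lymphocytes beside its resident macrophages, and cardiomyocyte RNA makes up much of what a whole heart yields. In such bulk RNA, fewer cells of a type and less RNA per cell cannot be told apart.

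The libraries were sequenced to total counts between 30085432 and 134920825, and in the knockout experiment replicates 3 and 4 of both genotypes were deeper (112904389 to 134920825) than replicates 1 and 2 (33914931 to 42409691). Ndufs6 was at 2.40 to 3.72 CPM (counts scaled to a common library total) in all 14 libraries. Atf3 itself was not lower in either test group but higher on average, with overlapping groups. It was at 6.24 to 25.4 CPM in Atf3+/+FS6KD and 14.4 to 38.7 CPM in Atf3-/-FS6KD. In the libraries labelled shCtrl it was at 10.3 to 14.2 CPM, and in those labelled shAtf3 at 12.1 to 20.8 CPM. The log2 fold change was 1.13 (SE 0.47, 95% interval 0.09 to 2.17) in the knockout comparison, with an unadjusted edgeR p of 0.0361 (adjusted 0.517). As labelled, it was 0.42 (SE 0.19, 95% interval 0.002 to 0.84) in the AAV comparison, with an unadjusted edgeR p of 0.0491 (adjusted 0.459). The deleted gene can still give reads from its remaining exons. In the AAV table the columns named for Atf3 are those that the labels call shCtrl, so each direction in that experiment is conditional on the labels. The 6 cardiomyocyte genes summed to 42516 CPM or more in every library. Replicates are separate samples by their titles, and p-values measure the spread between them.

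The 3 CD3 genes form a cluster on chromosome 9 that spans 40056 bases of GRCm38. Cd3g (chr9:44969572-44980431, minus strand) is followed after 1354 bases by Cd3d (chr9:44981786-44987339, plus strand), and Cd3e (chr9:44998740-45009627, minus strand) begins 11400 bases further on. Cd4 lies at chr6:124864692-124888221 (minus strand) and Cd8a at chr6:71373427-71379173 (plus strand). Cd79a (chr7:24897381-24902197, plus strand) and Nkg7 (chr7:43437073-43438249, plus strand) share chromosome 7. Cd79b is at chr11:106311341-106314762 (minus strand) and Ms4a1 at chr19:11249675-11266241 (minus strand). Cd3e overlaps the antisense gene Gm48719 and Gm48720, and Ms4a1 overlaps the antisense gene 4930526L06Rik. Whether strand was used in the counting is unknown, so reads of these overlaps may be misassigned.

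Promoter windows, from 250 bases before to 50 after the start, were at hand from RefSeq (GRCm38.p6) for 6 of the 9 genes, those of Cd3d, Cd3e, Cd3g, Cd8a, Cd79a and Nkg7. They were searched on both strands for 4 motifs bound by factors that act in lymphocytes or at start sites. The ETS family motif was searched as GGAAGT, which 23.8% of 32851 windows of the same length hold, and it was found once each in Cd3d, Cd3e and Cd79a. The RUNX family motif was searched as TGTGGT, held by 16.8% of all windows, and it was found once, in Nkg7. The E-box was searched as CANNTG, held by 72.3% of all windows and by all 6 of the members. The TATA box was searched as TATAAA, held by 13.6% of all windows and by 0 of the 6. The stretches around the ETS and RUNX letters are shown, with the matched letters in capitals, because these motifs were found in some of the 6 windows and not in others. They do not set the cell types apart, since the ETS letters stand in windows of T cell (Cd3d, Cd3e) and B cell (Cd79a) genes and in neither Cd3g nor Cd8a. The E-box was found 1 to 4 times in a window and its stretches are not shown. Each reads 5′ to 3′ on the strand of its gene, none of the matches overlaps another motif searched, and a match is a description of the letters only. Positions of the matches are counted from the RefSeq start of the gene, which is 44981786 for Cd3d, 45009611 for Cd3e, 24897497 for Cd79a and 43437138 for Nkg7 and differs from the GENCODE gene ends given above in all but Cd3d. The stretch of Cd3d lies at chr9:44981575-44981604 (plus strand) with its match at -199, and that of Cd3e at chr9:45009612-45009641 (minus strand) with its match at -18. The stretch of Cd79a lies at chr7:24897431-24897460 (plus strand, match at -54), and that of Nkg7 at chr7:43437043-43437072 (plus strand, match at -83). By GENCODE the stretch of Cd79a lies inside the gene and that of Cd3e overlaps its first bases. In Cd3d, Cd3e and Nkg7 the motif is on the opposite strand, so its reverse complement stands in capitals.
Cd3d: aaattcccttacACTTCCtagaattctgaa
Cd3e: agtcccctctacACTTCCtgtgtggggttc
Cd79a: cacggctgaacaGGAAGTgaggcggagttt
Nkg7: gggcccacccctACCACAtaggaggagagg

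All 9 genes were detected in all 14 libraries, but at low levels. Of the 126 values, 0 were at 0 counts, 33 were under 10 counts and 18 exceeded 1 CPM. Cd4 supplied 13 of those 18, Cd79b 3, and Cd3e and Cd3g 1 each. The members together summed to between 3.10 and 5.91 CPM in 13 libraries and to 11.0 CPM in Atf3-/-FS6KD replicate 2. Counting error alone is wide at these depths. The 1.25 counts of Cd3d in Atf3+/+FS6KD replicate 1, the lowest value of all, correspond to 0.0295 CPM, and the exact Poisson 95% interval, taken for the value rounded to 1 count, is 0.000597 to 0.131 CPM. The 55 counts of Cd3g in Atf3-/-FS6KD replicate 2 correspond to 1.48 CPM (1.12 to 1.93 CPM). These intervals cover counting error only. CPM in the text are raw, that is, divided by the library's total count, unless they are called TMM-normalized.

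**Figure D1:**
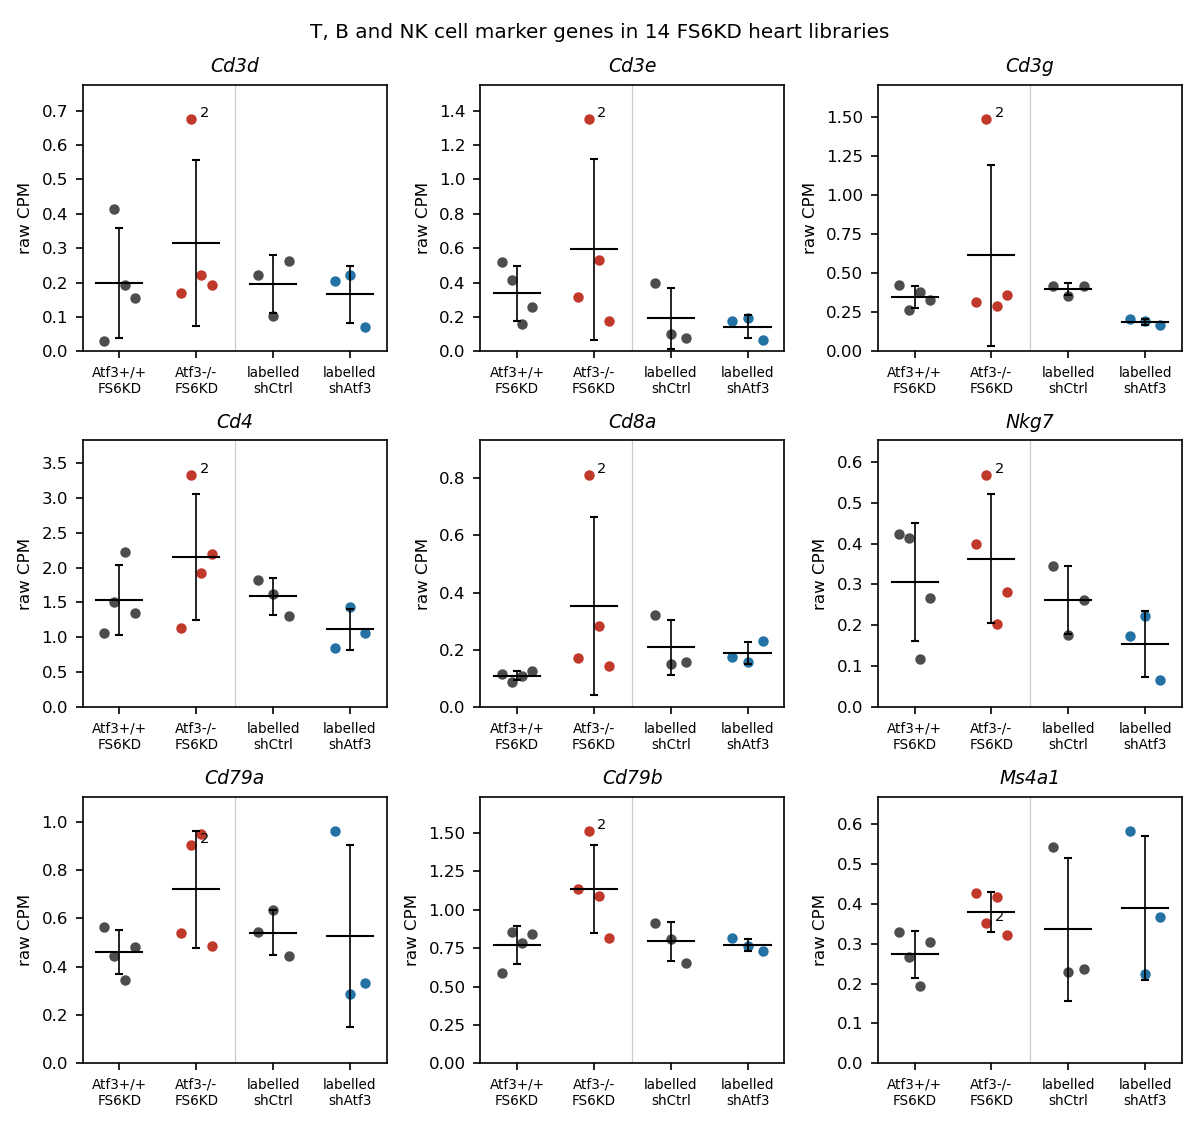
Raw CPM of each of the 9 marker genes (1 panel per gene, vertical axis from 0) in the 4 groups on the horizontal axis, with 1 point per library, the group mean as a bar and the SD as an error bar. The point marked 2 is Atf3-/-FS6KD replicate 2, which is the highest of all libraries in 7 of the 9 panels.

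The CD3 genes were dominated by that library. Cd3d was at 1.25, 14, 23 and 21 counts (0.0295, 0.413, 0.194 and 0.156 CPM) in Atf3+/+FS6KD replicates 1 to 4. In Atf3-/-FS6KD it was at 6, 25, 25 and 24 counts (0.171, 0.675, 0.221 and 0.193 CPM), again in replicate order. Cd3e was at 22, 14, 19 and 35 counts (0.519, 0.413, 0.160 and 0.259 CPM) against 11, 50, 60 and 22 counts (0.313, 1.35, 0.531 and 0.177 CPM). Cd3g was at 18, 9, 45 and 44 counts (0.424, 0.265, 0.379 and 0.326 CPM) against 11, 55, 33 and 45 counts (0.313, 1.48, 0.292 and 0.363 CPM). The groups overlapped for all 3 genes, and replicate 2 stood above every other library by a factor of 1.63, 2.54 and 3.50. Log2 fold changes of Atf3-/-FS6KD over Atf3+/+FS6KD were 0.59 (SE 0.62) for Cd3d, 0.76 (SE 0.60) for Cd3e and 0.64 (SE 0.52) for Cd3g, with edgeR adjusted p of 0.812, 0.739 and 0.741. Without replicate 2 they fell to 0.03, 0.05 and -0.17.

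Among the coreceptors, Cd8a showed the largest knockout difference of the 9 genes. It was at 5, 3, 13 and 17 counts (0.118, 0.0885, 0.110 and 0.126 CPM) in Atf3+/+FS6KD and at 6, 30, 32 and 18 counts (0.171, 0.810, 0.283 and 0.145 CPM) in Atf3-/-FS6KD. Every Atf3-/-FS6KD library lay above every Atf3+/+FS6KD library on either scale of CPM, the only member for which this held. Such separation upward was seen for 2.59% of all 23571 genes tested. The log2 fold change was 1.46 (SE 0.54, 95% interval 0.24 to 2.67). The edgeR adjusted p was 0.491 (unadjusted 0.0232), above the threshold of 0.05. Without replicate 2 the log2 fold change was 0.77 (adjusted p 0.661), and the TMM-normalized mean of the remaining 3 libraries was 0.195 ± 0.0680 CPM (SD, n = 3) against 0.113 ± 0.0159 CPM (SD, n = 4). TMM is the scaling of edgeR that corrects library totals for composition.

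Cd4 had the highest median of the 9 genes, 1.47 CPM over the 14 libraries. It was at 45, 51, 264 and 182 counts (1.06, 1.50, 2.22 and 1.35 CPM) in Atf3+/+FS6KD and at 40, 123, 217 and 273 counts (1.14, 3.32, 1.92 and 2.20 CPM) in Atf3-/-FS6KD. The groups overlapped, with a log2 fold change of 0.39 (SE 0.31, edgeR adjusted p 0.737) that was 0.14 without Atf3-/-FS6KD replicate 2. For each 100 counts of Cd4 there were 4.92 to 11.1 counts of Cd8a in Atf3+/+FS6KD and 6.59 to 24.4 in Atf3-/-FS6KD, with replicate 2 at the top.

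The B cell genes were higher on average in Atf3-/-FS6KD, with overlapping groups. Cd79a was at 24, 15, 41 and 65 counts (0.566, 0.442, 0.346 and 0.482 CPM) in Atf3+/+FS6KD and at 19, 33.5, 107 and 60 counts (0.541, 0.904, 0.948 and 0.483 CPM) in Atf3-/-FS6KD. Cd79b was at 25, 29, 93 and 114 counts (0.589, 0.855, 0.784 and 0.845 CPM) against 40, 56, 123 and 101 counts (1.14, 1.51, 1.09 and 0.814 CPM). Ms4a1 was at 14, 9, 23 and 41 counts (0.330, 0.265, 0.194 and 0.304 CPM) against 15, 13, 47 and 40 counts (0.427, 0.351, 0.416 and 0.322 CPM). For Cd79b only Atf3-/-FS6KD replicate 4, and for Ms4a1 only replicate 4 as well, fell within the range of Atf3+/+FS6KD. Log2 fold changes were 0.60 (SE 0.28) for Cd79a, 0.46 (SE 0.22) for Cd79b and 0.41 (SE 0.25) for Ms4a1, with edgeR adjusted p of 0.560, 0.567 and 0.657. Over all libraries left out singly they stayed between 0.25 and 0.77, so none changed sign.

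Nkg7 differed least. It was at 18, 14, 14 and 36 counts (0.424, 0.413, 0.118 and 0.267 CPM) in Atf3+/+FS6KD and at 14, 21, 23 and 35 counts (0.398, 0.567, 0.204 and 0.282 CPM) in Atf3-/-FS6KD. Its log2 fold change of 0.20 (SE 0.45, edgeR adjusted p 0.933) turned to -0.07 without Atf3-/-FS6KD replicate 2 and to -0.13 without Atf3+/+FS6KD replicate 3.

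Of the 9 members, 0 passed an adjusted p of 0.05 in the knockout comparison by edgeR, DESeq2 or limma-trend, and 1 (Cd8a) had an unadjusted edgeR p below 0.05. Of all 23571 genes, 0.00424% (1 gene) passed the adjusted and 9.15% the unadjusted threshold. All 9 log2 fold changes were above 0, with a median of 0.59, whereas 49.3% of all genes were above 0. The count was 7 of 9 and the median 0.14 without Atf3-/-FS6KD replicate 2. Within the shallower replicates 1 and 2 the median was 0.76 (9 of 9 above 0), and within the deeper replicates 3 and 4 it was 0.27 (8 of 9 above 0).

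In the AAV experiment all 5 T cell members had log2 fold changes below 0 as labelled, as had 51.5% of all genes. The other T cell genes did not share this direction, with 13 of 22 tested above 0 (median 0.03). With the groups exchanged, as the column names have it, all 5 T cell members and 6 of the 9 members would be above 0. The signs of Cd3d (up to 0.16), Cd3e (up to 0.71) and Cd8a (up to 0.32) turned when 1 library was left out. Cd3g, the member with the smallest p in that comparison, was at 17, 14 and 16 counts (0.419, 0.356 and 0.419 CPM) in the libraries labelled shCtrl and at 7, 6 and 5 counts (0.204, 0.191 and 0.166 CPM) in those labelled shAtf3. The groups did not overlap, as was the case, with the shAtf3 label lower, for 9.03% of all 20983 genes tested. The log2 fold change was -1.03 (SE 0.32, 95% interval -1.74 to -0.31) with an edgeR adjusted p of 0.282 (unadjusted 0.00930). The difference did not pass the threshold. When each library was left out in turn it stayed between -1.10 and -0.96.

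The other T cell genes overlapped between the AAV groups. Cd3d was at 9, 4 and 10 counts (0.222, 0.102 and 0.262 CPM) in the libraries labelled shCtrl and at 7, 7 and 2.12 counts (0.204, 0.223 and 0.0705 CPM) in those labelled shAtf3. Cd3e was at 16, 4 and 3 counts (0.395, 0.102 and 0.0786 CPM) against 6, 6 and 2 counts (0.174, 0.191 and 0.0665 CPM). Its level labelled shCtrl rested on replicate 1, and the log2 fold change of -0.36 (SE 0.67) was 0.71 without that library. Cd4 was at 74, 64 and 50 counts (1.83, 1.63 and 1.31 CPM) against 29, 45 and 32 counts (0.843, 1.44 and 1.06 CPM). Cd8a was at 13, 6 and 6 counts (0.321, 0.152 and 0.157 CPM) against 6, 5 and 7 counts (0.174, 0.159 and 0.233 CPM). Log2 fold changes were -0.18 (SE 0.53) for Cd3d, -0.47 (SE 0.22) for Cd4 and -0.12 (SE 0.44) for Cd8a, and the edgeR adjusted p of these genes and Cd3e lay between 0.488 and 0.956.

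B cell genes did not differ beyond the spread of the AAV libraries. Cd79a was at 22, 25 and 17 counts (0.543, 0.635 and 0.446 CPM) in the libraries labelled shCtrl and at 33, 9 and 10 counts (0.960, 0.287 and 0.332 CPM) in those labelled shAtf3. Cd79b was at 37, 32 and 25 counts (0.913, 0.813 and 0.655 CPM) against 28, 24 and 22 counts (0.814, 0.765 and 0.731 CPM). Ms4a1 was at 22, 9 and 9 counts (0.543, 0.229 and 0.236 CPM) against 20, 7 and 11 counts (0.582, 0.223 and 0.366 CPM). The library labelled shAtf3 replicate 1 was the highest of all 14 for Cd79a and Ms4a1. Log2 fold changes were 0.03 (95% interval -0.91 to 0.98) for Cd79a, 0.00 (-0.48 to 0.48) for Cd79b and 0.27 (-0.74 to 1.28) for Ms4a1. Nkg7 was at 14, 7 and 10 counts (0.345, 0.178 and 0.262 CPM) against 6, 7 and 2 counts (0.174, 0.223 and 0.0665 CPM), with a log2 fold change of -0.69 (SE 0.47, edgeR adjusted p 0.650) that was -0.36 without the library labelled shAtf3 replicate 3.

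Across the AAV comparison 0 members passed the adjusted threshold in edgeR or limma-trend, against 0.4% of all genes in edgeR. DESeq2 called 0 as well, and gave no adjusted p for 6 of the 9. At an unadjusted edgeR p below 0.05 there was 1 member (Cd3g), against 10.8% of all genes. Of the 9 log2 fold changes 3 were above 0, with a median of -0.18, and 48.5% of all genes were above 0. The count moved to 5 without the library labelled shCtrl replicate 1 and to 0 without the library labelled shAtf3 replicate 1.

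**Figure D2:**
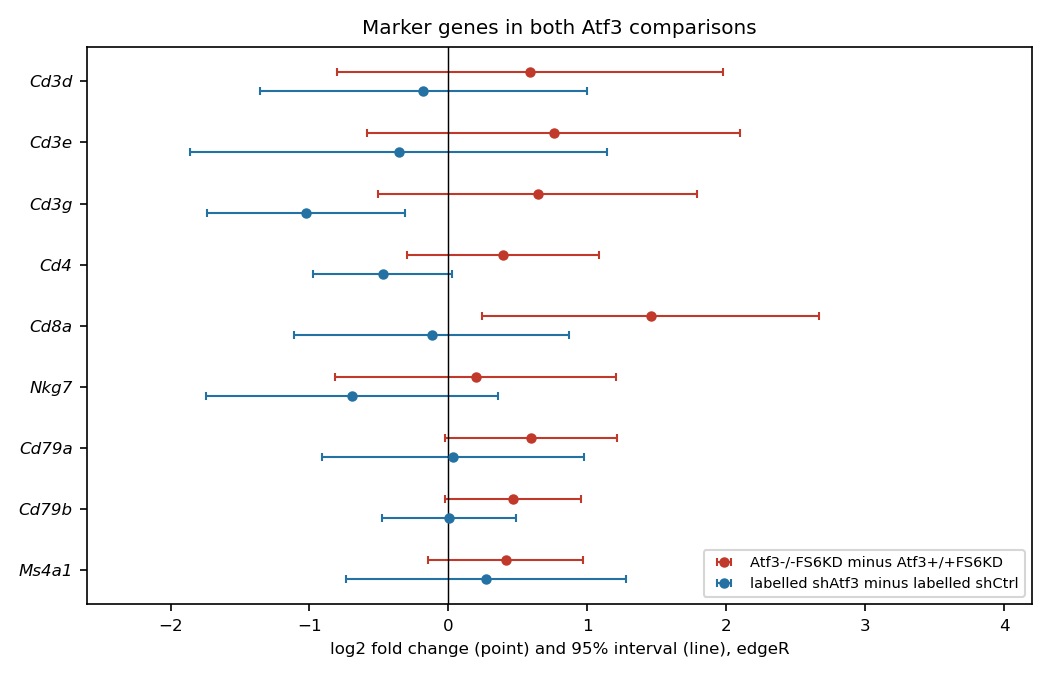
Log2 fold change of the 9 marker genes on the horizontal axis (points, with the 95% interval of edgeR as a line) in the knockout comparison (red, 4 against 4 libraries) and the AAV comparison as labelled (blue, 3 against 3). The interval excludes 0 for Cd8a in the knockout comparison (0.24 to 2.67) and for Cd3g in the AAV comparison (-1.74 to -0.31), and neither passed the adjusted threshold.

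An interaction term over all 14 libraries compared the 2 effects. For Cd3g the knockout effect exceeded the labelled knockdown effect by 1.67 on the log2 scale (SE 0.76, 95% interval 0.04 to 3.29, unadjusted p 0.0454, edgeR adjusted p 0.360). Differences for Cd8a (1.56, SE 0.80), Cd3e (1.12, SE 1.09), Nkg7 (0.90, SE 0.74), Cd4 (0.86, SE 0.45), Cd3d (0.77, SE 0.97), Cd79a (0.57, SE 0.54), Cd79b (0.46, SE 0.32) and Ms4a1 (0.15, SE 0.51) had edgeR adjusted p between 0.418 and 0.945. Without Atf3-/-FS6KD replicate 2 the difference fell to 0.86 for Cd3g (edgeR adjusted p 0.390), 0.88 for Cd8a and 0.22 for Cd3d. For Cd3e it was 0.05 without the library labelled shCtrl replicate 1, and for Cd79a 1.36 and 0.27 without the libraries labelled shAtf3 replicate 1 and 2. Of the 9 members, 0 passed the adjusted threshold by edgeR, DESeq2 (no adjusted p for 3) or limma-trend, and 1 (Cd3g) the unadjusted threshold of edgeR. Of all 24180 genes in this fit, 0.091% passed the adjusted and 13.4% the unadjusted threshold. With the AAV groups exchanged the difference was -0.40 (SE 0.76) for Cd3g, -0.075 (SE 0.45) for Cd4 and -0.49 (SE 0.74) for Nkg7, so these 3 changed sign, and 0 members passed the adjusted or the unadjusted threshold of edgeR. The sign for Cd3g in particular rests on the labels of the AAV libraries, and its size on Atf3-/-FS6KD replicate 2. The experiments differ in depth and in the means of targeting Atf3, which cannot be told apart here.

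Levels of different genes were compared per kilobase of exon. Cd79b had the highest mean, 0.736 ± 0.195 CPM per kilobase (SD, n = 14), followed by Cd4 (0.524 ± 0.207), Cd3g (0.391 ± 0.316), Cd79a (0.388 ± 0.153), Nkg7 (0.318 ± 0.155), Cd3e (0.231 ± 0.225), Cd3d (0.138 ± 0.0980), Ms4a1 (0.111 ± 0.0382) and Cd8a (0.0695 ± 0.0583). The step from Cd79b to Cd4 was larger than the SD of either gene, and Cd79b was the higher in 12 of 14 libraries. Each other step between neighbors was smaller than the larger of their SDs over all 14 libraries. Within libraries, Cd4 stood over Cd3g in 12 of 14 libraries, Nkg7 over Cd3e in 12 and Ms4a1 over Cd8a in 13. Cd79b exceeded Cd79a, its partner chain, in 14 of 14 libraries, and Cd3g exceeded Cd3d in 14 of 14.

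**Figure D3:**
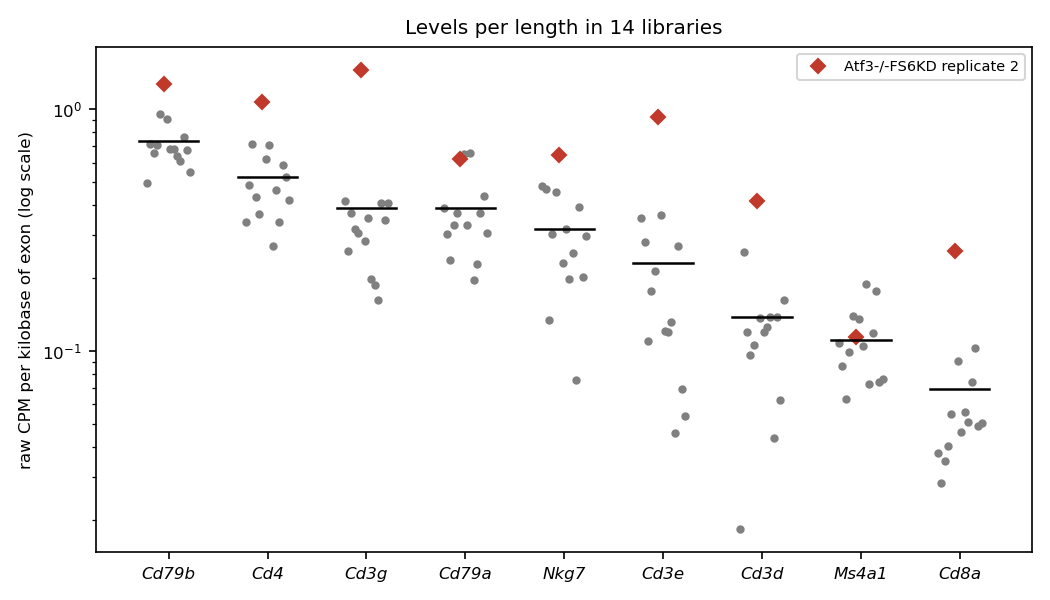
Raw CPM per kilobase of exon (vertical axis, log scale) of the 9 marker genes, ordered by their mean (bar), with 1 point per library in 14 libraries. Red diamonds mark Atf3-/-FS6KD replicate 2, which lies above the other 13 libraries for Cd79b, Cd4, Cd3g, Nkg7, Cd3e, Cd3d and Cd8a and within their range for Cd79a and Ms4a1.

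Atf3-/-FS6KD replicate 2 was then described over all members at once. The 3 CD3 genes summed to 130 counts (3.51 CPM) there and to between 0.303 and 1.09 CPM in the other 13 libraries. Trac, Trbc1 and Trbc2, which encode the constant regions of the T cell receptor and are not among the 9 genes, summed to 104.75 counts (2.83 CPM) in replicate 2 and to between 0.557 and 1.24 CPM in the others. Trac is listed a second time as a near-identical copy, so its own value is uncertain. Cd79a, Cd79b and Ms4a1 summed to 2.77 CPM in replicate 2 and to 1.28 to 2.45 CPM elsewhere. The 25 other T cell genes listed further on summed to 26.1 CPM in replicate 2, within the range of the other 13 libraries (21.6 to 28.6 CPM). The 20 other B cell genes summed to 58.9 CPM there, the highest of the 14 libraries, where the others lay between 37.6 and 47.3 CPM.

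Ptprc, which encodes the leukocyte surface protein CD45, was highest in the same library as well. Its level was 6.44, 7.49, 5.44 and 6.46 CPM in Atf3+/+FS6KD and 8.48, 13.6, 8.52 and 6.57 CPM in Atf3-/-FS6KD, and at 11.1, 7.77 and 8.23 CPM in the libraries labelled shCtrl and 7.71, 9.79 and 8.41 CPM in those labelled shAtf3. For each 100 counts of Ptprc there were 25.7 counts of CD3 genes in Atf3-/-FS6KD replicate 2, 9.40 to 12.3 in the other 3 Atf3-/-FS6KD libraries, 11.5 to 15.1 in Atf3+/+FS6KD, 7.19 to 9.38 in those labelled shCtrl and 3.60 to 7.55 in those labelled shAtf3. Relative to Ptprc, the remaining Atf3-/-FS6KD libraries were not above Atf3+/+FS6KD in CD3 genes. The B cell genes stood at 20.3 per 100 counts of Ptprc in replicate 2, the lowest of the 4 Atf3-/-FS6KD libraries (20.3 to 28.8), and at 20.9 to 25.3 in Atf3+/+FS6KD.

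**Figure D4:**
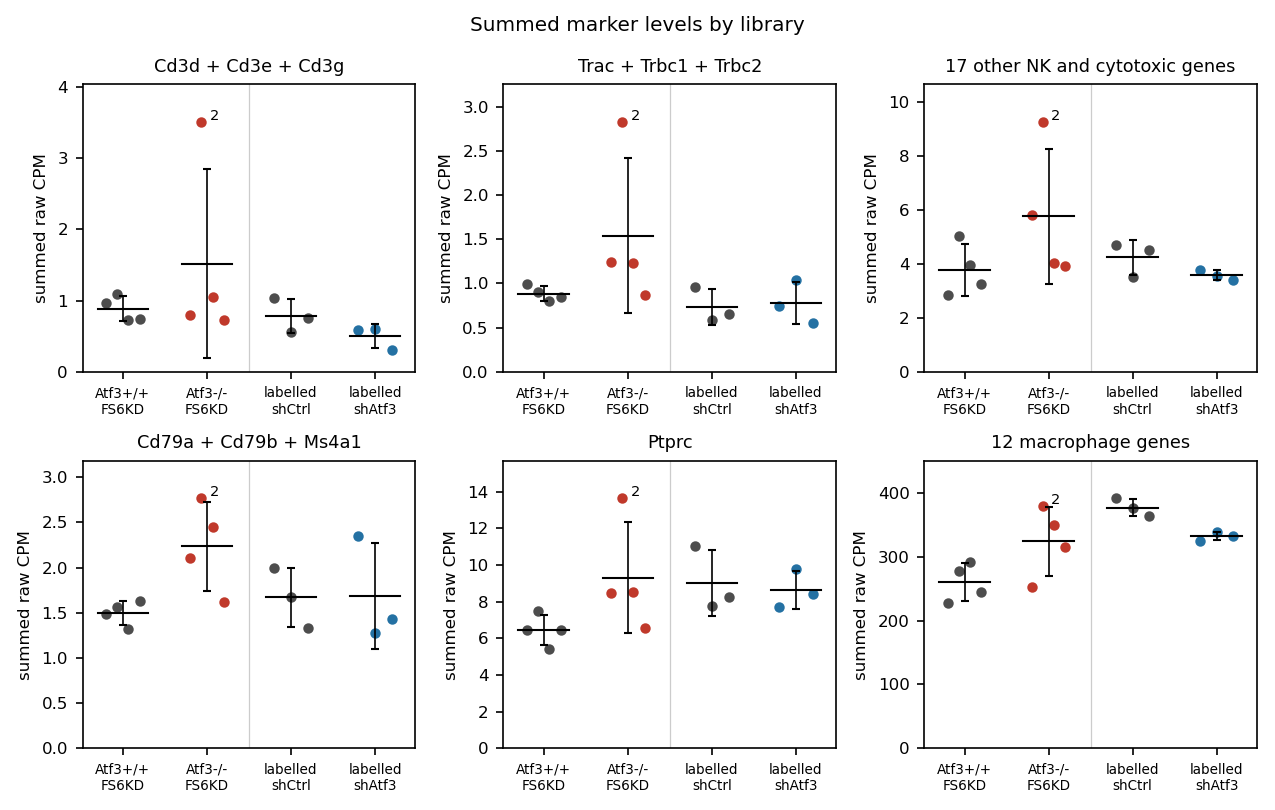
Summed raw CPM (vertical axis, from 0) of the CD3 genes, of T cell receptor constant regions, of 17 other NK and cytotoxic genes, of the B cell members, of Ptprc and of 12 macrophage genes, with 1 point per library, the group mean as a bar and the SD as an error bar. The point marked 2, Atf3-/-FS6KD replicate 2, reaches 3.51 CPM for the CD3 genes, where the other 13 libraries lie between 0.303 and 1.09 CPM.

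Other genes of the same cell types were examined as lists. Of 25 other T cell genes, 17 were above 0 in the knockout comparison (median log2 fold change 0.39, median of all genes 0.00), and 0 passed the adjusted threshold. The count was 15 (median 0.14) without Atf3-/-FS6KD replicate 2. At an unadjusted p below 0.05 (9.15% of all genes) were Lck, the kinase that starts T cell receptor signaling (1.03, SE 0.38), and in the other direction Cd247, the CD3 zeta chain (-0.59, SE 0.14). Their edgeR adjusted p were 0.483 and 0.327. The groups overlapped for Lck and did not overlap for Cd247, where Atf3-/-FS6KD was the lower. The list summed to 21.6 to 28.6 CPM in Atf3+/+FS6KD, 21.8 to 26.3 CPM in Atf3-/-FS6KD, 23.1 to 26.6 CPM in the libraries labelled shCtrl and 22.9 to 25.2 CPM in those labelled shAtf3. Its most abundant genes were Tcf7 (-0.17), Cd247 and Foxp3 (0.05).

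The B and NK cell lists were counted in the same way. Of 20 other B cell genes, 15 were above 0 in the knockout comparison (median 0.37, 14 and 0.20 without replicate 2). The list summed to 37.6 to 43.9 CPM in Atf3+/+FS6KD and 42.8 to 58.9 CPM in Atf3-/-FS6KD, and to 39.4 to 45.1 CPM in the libraries labelled shCtrl and 37.9 to 40.5 CPM in those labelled shAtf3. For Ighm, the heavy chain of IgM, the groups did not overlap, with Atf3-/-FS6KD the higher (0.44, SE 0.14, edgeR adjusted p 0.453). Of all genes, 2.59% were separated upward in this way. Cd72, which encodes a B cell surface receptor, was the other gene of that list at an unadjusted p below 0.05 (0.55, SE 0.23, edgeR adjusted p 0.523). Its groups overlapped, and 9.15% of all genes were below that unadjusted threshold. Ralgps2 (-0.12) and Fcer2a (-0.13) were the other genes of highest level. Of 17 other NK and cytotoxic genes, 15 were above 0 (median 0.81, 13 and 0.43 without replicate 2). Perforin (Prf1, 1.04, SE 0.32), the NK receptor gene Ncr1 (1.05, SE 0.37) and the transcription factor gene Eomes (1.82, SE 0.67) had an unadjusted p below 0.05, against 9.15% of all genes. Their edgeR adjusted p were 0.441, 0.470 and 0.483. Levels of these genes were low, at a mean log2 CPM of -2.48, -2.90 and -3.39. For Prf1 and Ncr1 the groups did not overlap, with Atf3-/-FS6KD the higher, and for Eomes they overlapped. The most abundant genes of that list were Il2rb (0.40), Ccl5 (0.45) and Klrk1 (0.34). The NK list summed to 2.84 to 5.01 CPM in Atf3+/+FS6KD, and in Atf3-/-FS6KD to 9.25 CPM in replicate 2 and 3.92 to 5.80 CPM in the other 3 libraries. It summed to 3.51 to 4.70 CPM in the libraries labelled shCtrl and 3.39 to 3.78 CPM in those labelled shAtf3.

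In the AAV comparison 13 of 22 tested T cell genes were above 0 (median 0.03), 7 of 20 B cell genes (median -0.13) and 5 of 17 NK genes (median -0.54), and 0 of any list passed the adjusted threshold in edgeR. At an unadjusted p below 0.05 were the B cell genes Fcrla (-1.53, SE 0.46) and Fcer2a (0.44, SE 0.17), and 0 genes of the T cell and NK lists. Of all genes, 10.8% were below that unadjusted threshold. The edgeR adjusted p of Fcrla and Fcer2a were 0.258 and 0.385.

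Markers of leukocytes, macrophages and fibroblasts lay mostly on the same side of 0 as most members. Of 8 genes of all leukocytes, 8 were above 0 in the knockout comparison (median 0.42, and 0.26 without replicate 2), 7 of them at an unadjusted (9.15% of all genes) and 0 at an adjusted p below 0.05 in edgeR, and their sum was 77.9 to 96.6 CPM in Atf3+/+FS6KD and 99.2 to 150 CPM in Atf3-/-FS6KD. Of 12 macrophage genes 11 were above 0 (median 0.30), 4 of them at an unadjusted p below 0.05, with sums of 227 to 292 CPM and 253 to 379 CPM. In the AAV comparison 0 of 8 leukocyte genes (median -0.18) and 3 of 12 macrophage genes (median -0.19) were above 0, and 3 and 5 were lower at an unadjusted p below 0.05 (10.8% of all genes in either direction). Of 6 fibroblast genes, 6 were above 0 in the knockout comparison (median 0.27), 5 of them at an unadjusted p below 0.05. As for the AAV libraries, 0 were above 0 (median -0.42), 6 were lower at an unadjusted p below 0.05 and 2 of them passed the adjusted threshold, against 0.4% of all genes. The part of these cells in the values of the T, B and NK genes was not tested.

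Defining genes of thymus and lymph node were at 0 in part. Rag1 was at 0 counts in 13 of 14 libraries, Rag2 in 10, Dntt in 12 and Foxn1, the factor of thymic epithelium, in 14. Rag1, Rag2 and Dntt never exceeded 2 counts in a library. Of the other 5 thymus genes, Ptcra (at most 15.25 counts), Psmb11 (6.32) and Arpp21 (314.11) were at 0 in 0 libraries, Aire (16) in 1 and Ccr9 (13) in 5. Of the lymph node genes, Glycam1 was at 0 in all 14 libraries and Madcam1 in 10 (at most 3 counts). Ccl21a (at most 2400.6 counts) and Ccl19 (24.48) were at 0 in 0 libraries and Cxcl13 (45) in 2. A count of 0 allows up to 3 counts. The 5 lymph node genes summed to 9.80 to 14.4 CPM in Atf3+/+FS6KD and 14.9 to 21.9 CPM in Atf3-/-FS6KD, and to 13.1 to 16.9 CPM in the libraries labelled shCtrl and 10.2 to 14.5 CPM in those labelled shAtf3. The part of these tissues in the values of the 9 genes was not tested.

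The genes whose levels went most closely with the members were sought among 15108 genes, by Pearson's correlation over the 14 libraries after the mean of each group was taken away. For the summed CD3 genes they were Aldh1a3 (r = 0.914), Clec4a1 (0.912), Rcn1 (0.911), Zfp934 (0.904) and Psd4 (0.895). For the B cell members they included Arhgap19 (0.878), Prkag1 (0.869), Cog6 (0.845) and Prmt1 (0.837), and for Nkg7 Fbxw2 (0.893), Sucla2 (0.892), Rbm48 (0.878), Hars2 (0.876) and Hnrnpa2b1 (0.874). Among the members, the 36 pairs correlated at -0.44 to 0.79, with a median of 0.34. Pairs of Cd3d, Cd3e, Cd3g and Cd8a correlated at 0.32 to 0.79, and Cd4 correlated with them at 0.54 (Cd3d), 0.22 (Cd3e), 0.52 (Cd3g) and 0.50 (Cd8a). Pairs of the B cell members correlated at 0.19 to 0.58. Pairs across cell types reached similar values, with 0.70 for Cd3e and Nkg7, 0.65 for Cd3d and Cd79b and 0.64 for Cd8a and Cd79b, and the lowest was Cd4 with Ms4a1 (-0.44). The points share libraries and their depth, and Atf3-/-FS6KD replicate 2 is among them, so these correlations are descriptions.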

How the data were processed

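Bulk RNA-seq of 14 hearts was analysed. Per the labels and the study's methods, stranded mRNA libraries were made, reads were mapped to GRCm38.p6 (aligner not given in the sources used here) and counted with featureCounts 2.0.0. The deposited tables hold estimated counts per gene, without normalization by the authors, and 19.3% to 24.4% of a library's values were not whole. Values were therefore rounded before testing, whereas the design had assumed whole counts. Of all count columns 0 were left unused. Genes with a total of 10 or more counts over the libraries of a fit were tested with edgeR 4.0.16 in R 4.3.3 (TMM, two-sided quasi-likelihood F-test, adjustment over all genes by Benjamini-Hochberg). The study's own filter, more than 1 CPM in at least 1 library, would keep 4 of the 9 members in the knockout and 1 in the AAV experiment, so it was an alternative. DESeq2 1.42.0, limma 3.58.1, other scalings, filters and left-out libraries were further alternatives. Scripts were tested on simulated data. Lengths and coordinates came from GENCODE M21. Replicates of a group differed by more than sampling noise.

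The members and lists were chosen with earlier results of these data known. Named genes were the members, the targeted genes, Ptprc, the 3 most abundant genes of each T, B and NK list and the 5 genes most like each summed level. 1 gene that this rule names is not reported here. Genes of those lists at an unadjusted p below 0.05 and the genes of other tissues were named after their values were seen.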

Additional observations from a re-analysis of the deposited data

Results flagged for a closer look

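Of the 18 groups of 4 libraries tested (9 members, 2 genotypes), 2 held a library farther from the rest than Dixon's 95% criterion for 4 samples. Both were Atf3-/-FS6KD replicate 2. Cd3d was at 0.649 TMM-normalized CPM there, and the nearest other Atf3-/-FS6KD library was at 0.213 CPM, a gap of 0.907 of the group's range. Cd3g was at 1.43 CPM, with the nearest library at 0.361 CPM and a gap of 0.930 of the range. Chance alone marks about 1 in 20 groups.

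The same library had the highest level of all 14 for 7 of the 9 members, for 15 of 25 other T cell genes (60.0%), 11 of 20 other B cell genes (55.0%), 10 of 17 other NK and cytotoxic genes (58.8%) and 5 of 8 genes of all leukocytes (62.5%). Over all 24211 genes with 10 or more counts the share was 12.1%. Among 12 macrophage genes it was 25.0% and among 6 fibroblast genes 16.7%.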

How the results depend on the processing

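In the knockout, AAV and interaction fits 0 members were called under every alternative run. Of the results compared with their main value, 614 were kept, 23 changed sign, and the other 2 were counts of AAV members above 0. Counts of members were kept if equal or within 1.5 times, and group levels if within the SD of the group. Log2 fold changes were kept if direction and side of the threshold stayed, whatever their size. Sizes moved by over 1.5 times in many, as without Atf3-/-FS6KD replicate 2, where the knockout log2 fold change went to 0.03 for Cd3d, 0.05 for Cd3e, 0.14 for Cd4 and 0.77 for Cd8a. Signs changed for Cd3g in the knockout (-0.16 within replicates 3 and 4), and in the AAV comparison for Cd79a (-0.012) and Cd79b (-0.043) with scaling by library size alone, and for Cd79a with limma-trend (-0.17). With the AAV groups exchanged, an alternative chosen after seeing the data, the interaction changed sign for Cd3g (-0.40), Cd4 (-0.075) and Nkg7 (-0.49). Scaling by library size alone moved the median of all genes to 0.07, -0.05 and 0.12 in the knockout, AAV and interaction fits.

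With 1 library left out, knockout log2 fold changes ranged from 0.03 to 1.01 for Cd3d, 0.05 to 1.11 for Cd3e, -0.17 to 0.92 for Cd3g, 0.14 to 0.64 for Cd4, 0.77 to 1.76 for Cd8a and -0.13 to 0.44 for Nkg7. AAV values ranged from -0.48 to 0.16 for Cd3d, -0.71 to 0.71 for Cd3e, -0.68 to -0.30 for Cd4, -1.004 to -0.36 for Nkg7, -0.30 to 0.32 for Cd8a, -0.76 to 0.34 for Cd79a, -0.11 to 0.12 for Cd79b and -0.16 to 0.80 for Ms4a1, and interaction values from 0.22 to 1.17 for Cd3d, 0.05 to 1.47 for Cd3e, 0.86 to 1.95 for Cd3g, 0.61 to 1.13 for Cd4, 0.88 to 1.86 for Cd8a, 0.27 to 1.36 for Cd79a, 0.31 to 0.59 for Cd79b, -0.38 to 0.57 for Ms4a1 and 0.56 to 1.23 for Nkg7. The number of members above 0 ranged from 0 to 5 in the AAV comparison. The leave-one-out counts of members above 0 were chosen after seeing the data.

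Over all genes, 1 was called in the knockout (195 by DESeq2, 2 by limma-trend, 2 without a filter, 0 with the 1 CPM filter, 0 to 18 with 1 library left out, 8 within replicates 3 and 4), 84 in the AAV comparison (306 by DESeq2, 304 without a filter, 1 to 277 with 1 library left out) and 22 in the interaction (647 by DESeq2, 61 without a filter, 75 by library size, 0 with the AAV groups exchanged, 4 to 124 with 1 library left out). The cause was not tested. Same-numbered replicates did not deviate together in every pair (correlations of 0.00674 to 0.145 in the knockout and -0.000319 to 0.152 in the AAV experiment), and not every sample went best with its own number. With a replicate block, edgeR called 0 genes in the knockout, 37 in the AAV comparison and 0 members, and Cd79a in the AAV comparison was at -0.036. Values under 10 counts have wide counting intervals, and some members spread widely between libraries, so smaller changes may have been missed. The part of depth in this was not tested.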

Other observations

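Further leukocyte lists were examined. Of 6 plasma cell genes, 5 were above 0 in the knockout and 1 in the AAV comparison (medians 0.22 and -0.16), and of the dendritic cell genes 6 of 8 and 2 of 7 (medians 0.50 and -0.28). Of the neutrophil genes 6 of 7 and 6 of 8 were above 0 (0.29 and 0.60). By edgeR, 0 genes of these lists passed the adjusted threshold in either comparison, 4 plasma and dendritic cell genes had an unadjusted p below 0.05 in each, and so did 0 and 1 neutrophil genes, against 9.15% and 10.8% of all genes. In the knockout and AAV comparisons 0 of 6 and 5 of 6 erythrocyte genes (medians -0.21 and 0.04), 4 of 6 and 0 of 4 adipocyte genes (0.10 and -0.997), 6 and 4 of 6 endothelial genes (0.10 and 0.02) and 1 and 6 of 6 cardiomyocyte genes (-0.15 and 0.12) were above 0. Of the thymus genes, 2 and 3 of 5 tested were above 0, and of the lymph node stroma genes 3 and 1 of 3. Ccl21a, a chemokine of lymphatic vessels and lymph node stroma, was detected in all 14 libraries with 12588 counts in total and at most 2400.6 in a library.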
